A study of Mus musculus with 24 samples.

Results

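The antioxidant enzymes described here are 10 mouse genes chosen by name, Sod1, Sod2, Cat, Gpx1, Prdx1, Prdx2, Txn1, Txnrd1, Hmox1 and Nqo1, out of 24325 named genes on a 1-colour Agilent mouse expression array. They are read by 13 of its 39429 probes, and where a gene has several probes the brightest stands for it. All 10 were among the 13053 genes bright enough to be tested. The rule that lists them uses no measured value. RNA came from whole blood of male 129S/J mice, collected from the heart 24 h after X-rays or sham exposure, and globin RNA was depleted before labelling, per the labels' protocols. Each array held 1 mouse, per the series' design text. Wild-type mice received 0 Gy (n = 5), 6 Gy (n = 5) or 8.8 Gy (n = 4), and Parp1-/- mice, called knockout below, received 0 Gy (n = 5) or 6 Gy (n = 5). The dose of 8.8 Gy is the LD50/30 (a median lethal dose after exposure) of wild-type mice, and 6 Gy is that of knockout mice. The labels do not give the mice's age or which part of Parp1 the allele lacks.

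Superoxide dismutases turn superoxide into hydrogen peroxide, which catalase, glutathione peroxidases and peroxiredoxins then remove. Peroxiredoxins are kept active by thioredoxin, itself recharged by thioredoxin reductase with NADPH, while heme oxygenase 1 and NAD(P)H quinone dehydrogenase 1 are inducible enzymes controlled by the transcription factor Nrf2. Red cells, which carry oxygen and iron, are rich in catalase, glutathione peroxidase 1 and peroxiredoxin 2. Whole blood holds red cells and their young forms, platelets and white cells, and in such bulk samples fewer cells of a type and less RNA per cell cannot be told apart.

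Levels below are log2 processed signals minus the array's 75th percentile, so that 0 is the 75th percentile of the array's spots. The share of spots well above background ranged from 36.6% to 57.8% over the 24 arrays and was lowest in the knockout 0 Gy group (39.4% ± 2.4, SD, n = 5). No spot of the 10 genes was saturated. The Parp1 probe, which checks the labels only if it lies in the deleted part, was well above background on all 5 wild-type 0 Gy arrays and on 0 of 5 knockout 0 Gy arrays. It was well above background, at -1.67, on the array labelled knockout 6 Gy replicate 1, against its label. That array was also the closest match of any pair to wild-type 8.8 Gy replicate 2, with an SD of the log2 difference of 0.17 over 10766 probes against 0.26 for the next of 276 pairs and a median of 0.90. On wild-type 8.8 Gy replicate 4 Parp1 was not well above background (-3.95), and the same array was dim around its Prdx2 spot, as given below. Calls of the 10 genes that were lost or gained when both of these arrays were left out are given beside the results below, as are lost calls of the other named genes, for which that refit was chosen after seeing the data. Arrays were scanned on 4 days and 10 slides. The wild-type 0 Gy arrays share no scan day with the irradiated wild-type arrays, whereas 1 knockout 6 Gy array shares its day and slide with 2 knockout 0 Gy arrays. Wild-type 0 Gy and knockout 0 Gy arrays share no scan day or slide.

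The 250 bases before the transcription start of Sod2, Gpx1 and Nqo1 are shown because these 3 genes fell in all 3 radiation responses, and that of Prdx1 because it holds the letters of an antioxidant response element, the sequence that Nrf2 binds, in a gene that was not called. Sequences are from RefSeq, GRCm38.p6, read on the gene's strand, and end at the base before the start. The Sod2 window is chr17:13007589-13007838 on the plus strand and that of Gpx1 is chr9:108338830-108339079 on the plus strand. The window of Nqo1 is chr8:107403206-107403455 on the minus strand, and that of Prdx1 is chr4:116685349-116685598 on the plus strand. Capitals mark matches to 4 motifs searched on both strands, the antioxidant response element TGACNNNGC, the GATA motif GATAAG, the GC box GGGCGG and the TATA box TATAAA.
Sod2: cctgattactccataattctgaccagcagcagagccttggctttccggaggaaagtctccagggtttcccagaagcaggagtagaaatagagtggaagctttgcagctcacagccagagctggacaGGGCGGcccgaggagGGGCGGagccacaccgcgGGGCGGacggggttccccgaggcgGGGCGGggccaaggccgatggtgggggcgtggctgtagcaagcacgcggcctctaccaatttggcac
Gpx1: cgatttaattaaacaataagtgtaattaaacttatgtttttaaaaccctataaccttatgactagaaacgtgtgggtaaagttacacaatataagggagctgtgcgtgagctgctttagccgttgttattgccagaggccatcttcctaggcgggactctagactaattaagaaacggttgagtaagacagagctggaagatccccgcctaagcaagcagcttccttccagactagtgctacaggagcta
Nqo1: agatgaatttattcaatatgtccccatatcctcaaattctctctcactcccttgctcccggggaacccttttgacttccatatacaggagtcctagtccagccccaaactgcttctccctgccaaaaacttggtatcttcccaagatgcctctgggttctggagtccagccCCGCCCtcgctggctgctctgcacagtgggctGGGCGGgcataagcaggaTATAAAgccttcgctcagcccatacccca
Prdx1: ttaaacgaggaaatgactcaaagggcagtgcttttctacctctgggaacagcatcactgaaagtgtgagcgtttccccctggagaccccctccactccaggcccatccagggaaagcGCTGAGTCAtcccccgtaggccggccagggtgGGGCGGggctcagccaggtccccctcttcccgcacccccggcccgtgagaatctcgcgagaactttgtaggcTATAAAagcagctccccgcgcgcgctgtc
The Sod2 window held 4 GC boxes, the Nqo1 window held 2 GC boxes and a TATA box, and the Gpx1 window held none of the 4 motifs. Prdx1 held the response element letters 133 to 125 bases before its start, with a GC box and a TATA box. Windows were matched for 9 of the 10 genes (Hmox1 was not among them). The 9 genes had 11 windows, since Txnrd1 has 3. Response element letters were in 3 of the 11 windows (1 each of Prdx1, Txnrd1 and Sod1), GC boxes in 7, TATA boxes in 4 and GATA letters in 0. Over 32851 promoter windows of the same length the shares were 10.2% for the response element, 32.7% for the GC box, 12.4% for the TATA box and 6.55% for GATA. A match of letters is a description and not a binding site.

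In all 3 radiation responses Sod2, Gpx1 and Nqo1 fell, Sod2 and Gpx1 by 2.46 to 3.94-fold, and 0 of the 10 genes were called higher. Under quantile normalization, in place of the 75th percentile, Txn1 and Hmox1 were called higher in wild type at 6 Gy (limma adjusted p = 0.0269 and 0.0276) and the brighter Cat probe in the knockout (0.0135). In wild type at 6 Gy, median centring, the mean of a gene's probes and the deposited log2 values each called 1 gene higher, and a liver marker covariate 2. In the knockout, the deposited values called 1 higher, normexp background correction 3, and its later refit (described below) 1. Wild-type mice at 6 Gy had 4 genes lower (with Txnrd1), wild-type mice at 8.8 Gy had 3 and knockout mice at 6 Gy had 3. Cat enters the counts and medians of the 10 genes through its brighter probe, whose level is not read as catalase RNA. In a fit of every probe, chosen after seeing the data, the other Cat probe was called lower at 6 Gy in both genotypes. Its differences were -2.69 in wild type (limma adjusted p = 0.000401) and -1.36 in the knockout (0.0292). At 8.8 Gy it was not called (-0.38, limma adjusted p = 0.608). A gene was called where limma's adjusted p (Benjamini-Hochberg over 13053 genes) was under 0.05. Against the counts of the 10 genes, 10.9% of all genes were called lower at 6 Gy in wild type, 9.03% at 8.8 Gy and 10.5% in the knockout. The shares called higher were 15.5%, 7.03% and 12.3%. The median log2 difference of the 10 genes was -0.97 in wild type at 6 Gy, where that of all genes was 0.04. At 8.8 Gy it was -0.43 against 0.03, and in the knockout -0.47 against -0.07. In either direction 26.4%, 16.1% and 22.8% of all genes were called. Groups did not overlap for 3, 1 and 4 of the 10 genes respectively, and for 18.6%, 18.2% and 15.3% of the 13032, 13001 and 13041 tested genes with a value on every array of both groups.

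**Figure D1:**
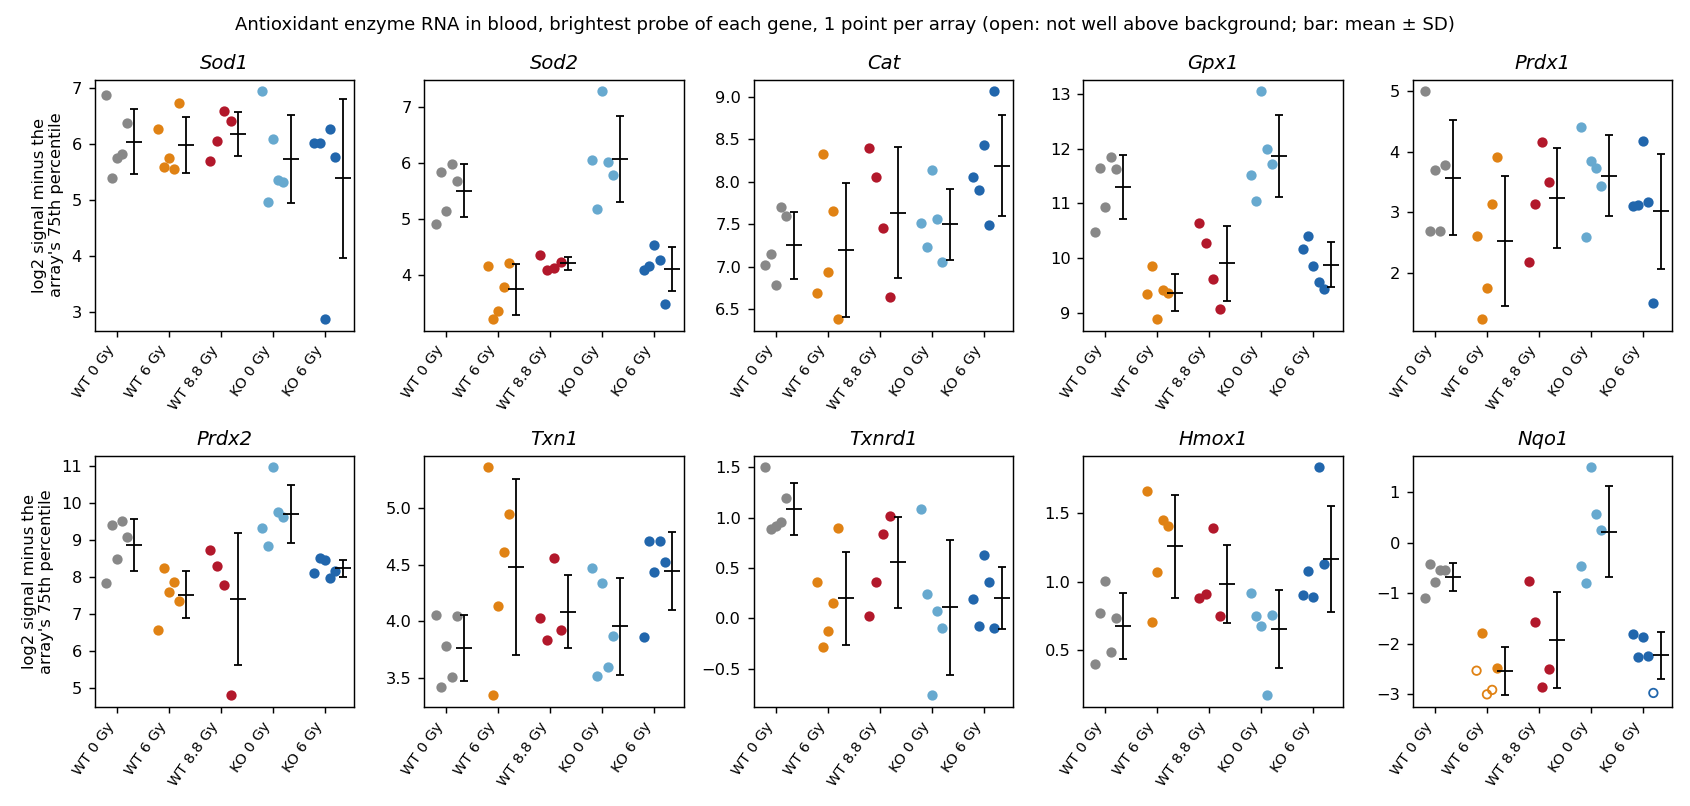
Log2 level (processed signal minus the array's 75th percentile) of the brightest probe of each of the 10 genes in the 5 groups, 1 point per array, with bars for mean ± SD; open points were not well above background. Sod2 separates all 14 irradiated from all 10 sham arrays, whereas Sod1, Cat and Prdx1 overlap between groups.

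Sod2, the manganese superoxide dismutase of mitochondria, was read at chr17:13208074-13208133 (mm9, plus strand). Its log2 levels were 4.91, 5.84, 5.13, 5.98 and 5.67 in wild-type 0 Gy, 4.17, 3.21, 3.35, 3.79 and 4.21 at 6 Gy, and 4.36, 4.10, 4.13 and 4.24 at 8.8 Gy. In the knockout they were 6.05, 5.17, 7.28, 6.01 and 5.79 at 0 Gy and 4.09, 4.16, 4.54, 4.28 and 3.48 at 6 Gy. Every one of the 14 irradiated arrays (3.21 to 4.54) lay below every one of the 10 sham arrays (4.91 to 7.28). The fall was 3.39-fold in wild type at 6 Gy (log2 difference -1.76 ± 0.31 SE, limma adjusted p = 0.000723), 2.46-fold at 8.8 Gy (-1.30 ± 0.33, adjusted p = 0.0106) and 3.87-fold in the knockout (-1.95 ± 0.31, adjusted p = 0.000170). Sod1, the copper and zinc dismutase of the cytosol, was called in none of the 3 responses, with log2 differences of -0.06 ± 0.50, 0.14 ± 0.53 and -0.35 ± 0.50 SE. Its array levels ran from 4.96 to 6.94 in the sham groups and from 2.87 to 6.73 after irradiation, so the groups overlapped. The 95% interval of each Sod1 difference includes a 2-fold change in at least 1 direction.

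Gpx1, the glutathione peroxidase of the cytosol, fell by close to 2 log2 units at 6 Gy in both genotypes. Its levels (chr9:108242276-108242335, mm9, plus strand) were 10.47, 11.65, 10.93, 11.85 and 11.63 in wild-type 0 Gy, 9.34, 9.85, 8.89, 9.42 and 9.37 at 6 Gy, and 10.64, 10.27, 9.63 and 9.08 at 8.8 Gy. Knockout levels were 11.51, 11.05, 13.05, 11.99 and 11.73 at 0 Gy and 10.17, 10.40, 9.86, 9.56 and 9.44 at 6 Gy. Of the 14 irradiated arrays, 13 lay below all sham arrays, and the exception was wild-type 8.8 Gy replicate 1. The change was 3.82-fold lower in wild type at 6 Gy (-1.93 ± 0.35, limma adjusted p = 0.000857), 2.64-fold lower at 8.8 Gy (-1.40 ± 0.37, adjusted p = 0.0132) and 3.94-fold lower in the knockout (-1.98 ± 0.35, adjusted p = 0.000420). Without wild-type 8.8 Gy replicate 4 the 8.8 Gy difference was -1.13 (limma adjusted p = 0.0596), which ended its call. Without both doubted arrays the 8.8 Gy difference was -1.13 for Gpx1 (limma adjusted p = 0.0676) and -1.31 for Sod2 (0.0305). Without the array labelled knockout 6 Gy replicate 1 alone, the knockout differences were -2.05 for Gpx1 and -1.95 for Sod2 (limma adjusted p = 0.000895 and 0.000579).

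Nqo1, which reduces quinones in a single step that avoids radicals, was called lower in all 3 responses, on a probe near background at 6 Gy. Its levels (chr8:109912440-109912499, mm9, minus strand) were -1.10, -0.43, -0.78, -0.54 and -0.53 in wild-type 0 Gy, -2.53, -1.78, -3.00, -2.91 and -2.47 at 6 Gy, and -0.76, -1.56, -2.85 and -2.50 at 8.8 Gy. Knockout levels were -0.46, -0.80, 1.49, 0.58 and 0.26 at 0 Gy and -1.81, -2.26, -1.86, -2.23 and -2.97 at 6 Gy. It was well above background on all sham arrays but on only 2 of the 5 wild-type 6 Gy arrays and 4 of the 5 knockout 6 Gy arrays. All irradiated arrays but wild-type 8.8 Gy replicate 1 lay below all sham arrays. The log2 difference was -1.86 ± 0.40 in wild type at 6 Gy (limma adjusted p = 0.00275), -2.44 ± 0.40 in the knockout (adjusted p = 0.000190) and -1.24 ± 0.42 at 8.8 Gy (adjusted p = 0.0461). No fold is given, since the arrays not well above background measure a level only as near background. The 8.8 Gy call was lost in 15 of the 24 refits that each left out 1 array (limma adjusted p up to 0.149, at -0.93, without wild-type 8.8 Gy replicate 3). Normexp background correction was also fitted without a few spots of very bright local background, an alternative chosen after seeing the data. There the differences of Nqo1 shrank to -0.64 in wild type at 6 Gy (limma adjusted p = 0.0311), -1.19 in the knockout (0.000258) and -0.53 at 8.8 Gy (0.107). Without both doubted arrays the differences of Nqo1 were -2.54 in the knockout (limma adjusted p = 0.000474) and -1.05 at 8.8 Gy (0.145), and the latter call was lost.

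**Figure D2:**
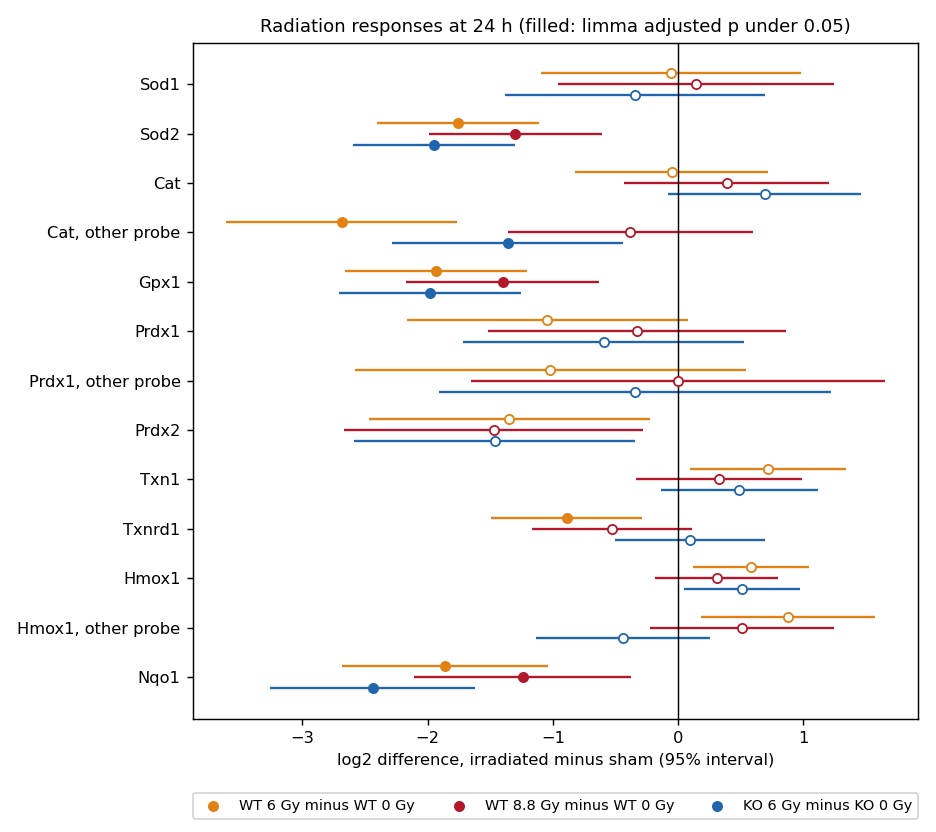
Log2 difference, irradiated minus sham, with its 95% interval for each gene and for the second probe of Cat, Prdx1 and Hmox1, in the 3 radiation responses; filled points had a limma adjusted p under 0.05. Sod2, Gpx1 and Nqo1 are filled in all 3 responses, and the other Cat probe in both 6 Gy responses.

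The falls came with lower levels of red-cell marker genes. Of 22 tested red-cell markers, 13 were called lower and 2 higher in wild type at 6 Gy, 5 lower and 2 higher at 8.8 Gy (1 lower and 2 higher without both doubted arrays), and 14 lower and 2 higher in the knockout. The mean log2 level over these markers ranged from 2.15 to 3.85 in wild-type 0 Gy, from 1.20 to 2.41 at 6 Gy and from 1.37 to 3.66 at 8.8 Gy. It ranged from 3.18 to 5.10 in knockout 0 Gy and from 2.31 to 2.89 in knockout 6 Gy. Of the 23 markers on the array, 0 were below the detection limit on every wild-type 0 Gy array, 2 on every wild-type 6 Gy array, 1 on every wild-type 8.8 Gy array, 2 on every knockout 0 Gy array and 1 on every knockout 6 Gy array. Wild-type 8.8 Gy replicate 1, the exception for Gpx1 and Nqo1, had the highest marker mean of its group (3.66), and knockout 0 Gy replicate 3, the highest array for Sod2, Gpx1, Prdx2 and Nqo1, had the highest of all (5.10). B cell markers fell too, with 9 of 11 called lower in each of the 3 responses, as did T cell markers, with 11, 12 and 13 of 14. Liver cell markers varied widely within groups (SD of their mean from 3.2 to 4.5) and none of 14 was called. The part of these cell types in the falls was not tested.

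**Figure D3:**
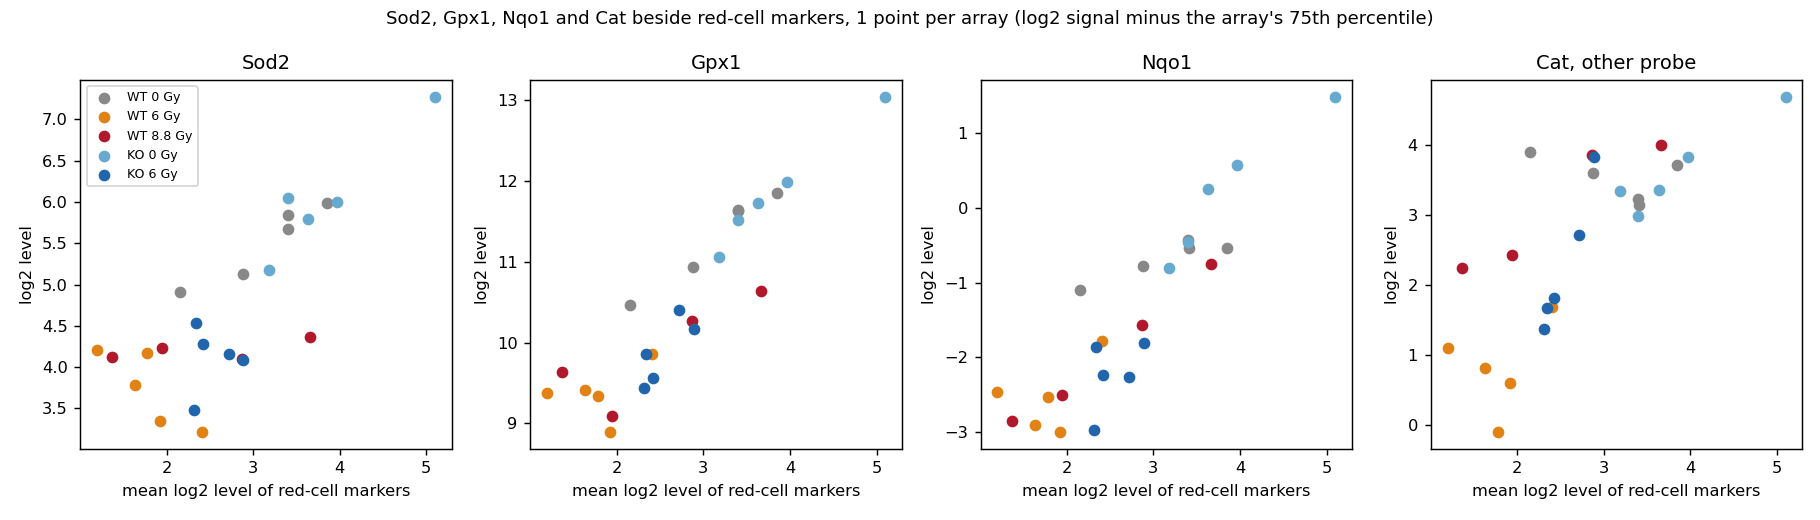
Log2 level of Sod2, Gpx1, Nqo1 and the other Cat probe against the mean log2 level of the red-cell markers on the same array, coloured by group. Knockout 0 Gy replicate 3 (5.10 on the marker axis) is highest for all 4 probes.

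Scan day and slide moved with dose in wild type, and with genotype between the sham groups. With scan day as a fixed term 0 of the 10 genes were called in each of the 3 responses. Of all genes, 0.115% were then called in wild type at 6 Gy, 0.176% at 8.8 Gy and 0.429% in the knockout. The differences at 6 Gy in wild type were -1.75 for Sod2, -2.51 for Gpx1 and -2.11 for Nqo1. With slide as a fixed term 0 of the 10 were called as well, beside 0%, 0% and 0.406% of all genes. The wild-type differences at 6 Gy were then -1.19 for Sod2, -1.91 for Gpx1 and -1.92 for Nqo1. On the 1 slide that holds both knockout groups, the single knockout 6 Gy array lay 2.14 log2 units below the mean of the 2 knockout 0 Gy arrays for Sod2, 1.85 below for Gpx1 and 2.34 below for Nqo1. In wild type no day holds both sham and irradiated arrays, so no within-day value exists there. The wild-type values with scan day or slide fixed link sham to irradiated arrays only through knockout 6 Gy arrays. Of these, replicate 4 alone shares a scan day and a slide with wild-type 0 Gy arrays, and those on the irradiated arrays' day include the doubted replicate 1.

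Cat, the heme enzyme catalase, gave differing results on its 2 probes, and both are shown because the sequence of the brighter one bears on what it reads. The brighter probe lies at chr2:103294487-103294546 (mm9, minus strand) and holds a run of 16 bases of alternating C and A, in capitals below in bases 27 to 56 of the probe. The other matches the genome over a split span of 3343 bases, chr2:103297086-103300428 (mm9, minus strand), and is shown whole.
Brighter Cat probe: cacatacCACACACACACACACAtgcaata
Other Cat probe: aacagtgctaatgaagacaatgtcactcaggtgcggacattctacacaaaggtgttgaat
A run of at least 16 such bases is in 33 of 39429 probes (0.0837%). Over the 24 arrays the brighter Cat probe had a median Pearson r of 0.90 (lowest 0.53) with 29 other probes that hold such a run. Its median r was 0.10 over 10766 probes. Only probes well above background on every array were compared. The other Cat probe had a median r of -0.03 with the same 29. The 3 genes most like the brighter probe, Oprm1 (r = 0.96), Btnl10 (0.95) and Slc8a3 (0.95), are read by probes with runs of 27, 31 and 30 bases. The arrays share the array-wide scaling, so these correlations are a description. The level of the brighter probe is therefore given without a reading as catalase RNA.

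The brighter Cat probe was called in no response, with log2 differences of -0.05 ± 0.37, 0.39 ± 0.39 and 0.69 ± 0.37 SE. On the other probe the levels were 3.89, 3.22, 3.59, 3.71 and 3.13 in wild-type 0 Gy, -0.10, 1.69, 0.61, 0.81 and 1.10 at 6 Gy, and 3.99, 3.85, 2.24 and 2.42 at 8.8 Gy. Knockout levels were 2.97, 3.34, 4.68, 3.83 and 3.36 at 0 Gy and 3.82, 2.71, 1.66, 1.82 and 1.37 at 6 Gy. All wild-type 6 Gy arrays lay below all wild-type 0 Gy and 8.8 Gy arrays, whereas the 8.8 Gy arrays overlapped the sham arrays. In a fit of every probe, chosen after seeing the data, it fell 6.44-fold in wild type at 6 Gy (-2.69 ± 0.45, limma adjusted p = 0.000401) and 2.57-fold in the knockout (-1.36 ± 0.45, adjusted p = 0.0292). Its value at 8.8 Gy was -0.38 ± 0.47 (limma adjusted p = 0.608), and the step from 6 to 8.8 Gy in wild type was 2.30 ± 0.47 (limma adjusted p = 0.0565). In that fit 10.7% of 19088 probes were called lower in wild type at 6 Gy, 12.4% in the knockout and 10.8% at 8.8 Gy. The high knockout 6 Gy value, 3.82, is that of the array whose Parp1 level goes against its label. Without both doubted arrays the knockout difference of this probe was -1.75 ± 0.41 (limma adjusted p = 0.00515), that at 8.8 Gy -0.15 ± 0.44 (0.850), and the step from 6 to 8.8 Gy 2.54 ± 0.44 (0.0946).

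**Figure D4:**
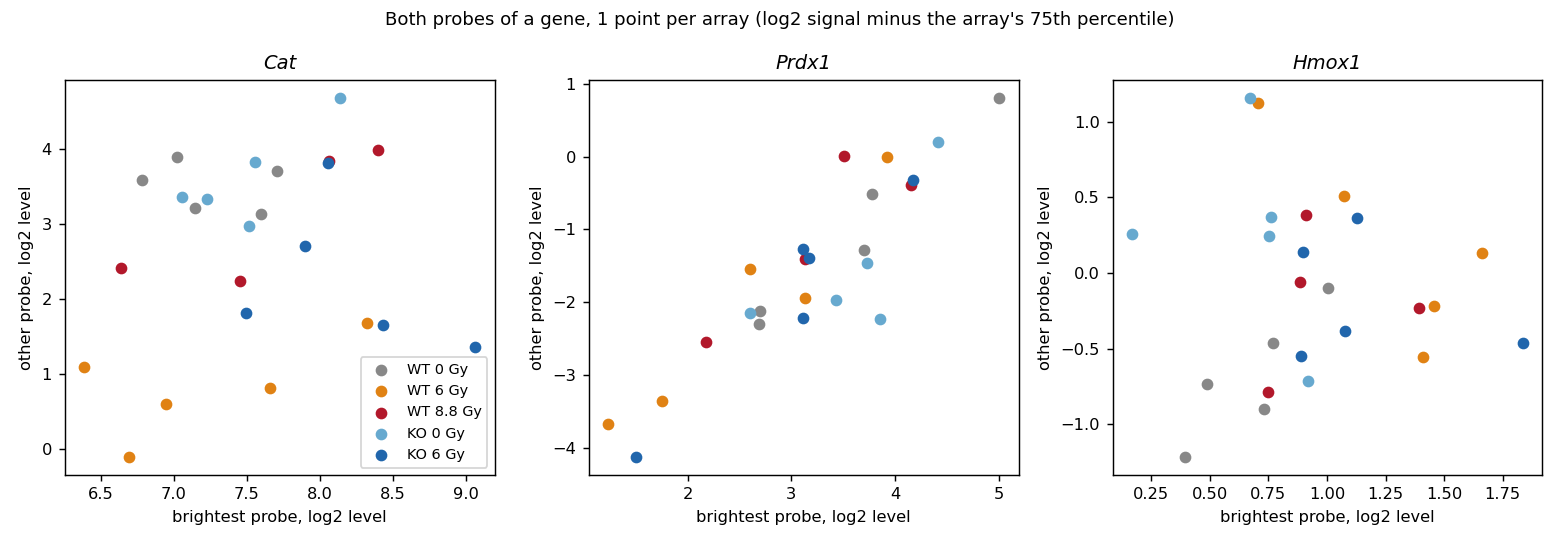
Log2 level of the brightest against the other probe of Cat, Prdx1 and Hmox1, 1 point per array, coloured by group. The Prdx1 probes rise together (r = 0.90 over 24 arrays), whereas those of Cat (r = 0.18) and Hmox1 (r = -0.03) do not.

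Prdx2, the peroxiredoxin most abundant in red cells, had lower means after irradiation that missed the threshold. Its levels (chr8:87498153-87498212, mm9, plus strand) were 7.85, 9.42, 8.49, 9.53 and 9.09 in wild-type 0 Gy, 6.57, 8.25, 7.59, 7.87 and 7.36 at 6 Gy, and 8.74, 8.30, 7.78 and 4.80 at 8.8 Gy. Knockout levels were 9.34, 8.85, 10.97, 9.77 and 9.63 at 0 Gy and 8.12, 8.51, 8.46, 7.98 and 8.16 at 6 Gy. The knockout groups did not overlap, and the wild-type groups did. The differences were -1.35 ± 0.54 (limma adjusted p = 0.0680), -1.47 ± 0.58 (0.0830) and -1.47 ± 0.54 (0.0545). The value of 4.80 comes from wild-type 8.8 Gy replicate 4, where the median of the 105 neighbouring spots was -1.22 against 0.13 to 0.22 on the other arrays of the group. Without that array Prdx2 was called in wild type at 6 Gy (limma adjusted p = 0.0129) and in the knockout (0.00719), with the same differences, and its 8.8 Gy difference was -0.60. Both calls were also gained without both doubted arrays (limma adjusted p = 0.0152 and 0.0167). Leaving out wild-type 8.8 Gy replicate 1 instead gave -1.92 at 8.8 Gy (limma adjusted p = 0.0371). Prdx1, a cytosolic peroxiredoxin, was called in no response, at -1.05 ± 0.54, -0.33 ± 0.58 and -0.59 ± 0.54 SE, and all its groups overlapped.

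Txnrd1, the cytosolic thioredoxin reductase, was called lower in wild type at 6 Gy and not in the other 2 responses. Its levels (chr10:82360230-82360289, mm9, plus strand) were 1.50, 0.88, 0.91, 0.96 and 1.19 in wild-type 0 Gy, 0.36, -0.29, -0.13, 0.16 and 0.90 at 6 Gy, and 0.03, 0.36, 0.84 and 1.02 at 8.8 Gy. Knockout levels were 1.09, 0.24, -0.77, 0.08 and -0.10 at 0 Gy and 0.19, -0.08, 0.63, 0.36 and -0.10 at 6 Gy. The wild-type 6 Gy and 0 Gy groups overlapped by 1 array, and the knockout groups overlapped throughout. The fall at 6 Gy was 1.85-fold (-0.89 ± 0.29, limma adjusted p = 0.0280), and it was lost in 4 of 24 refits without 1 array (limma adjusted p up to 0.0813). The knockout response was 0.09 ± 0.29, and the difference between the genotypes' responses was 0.98 ± 0.41 (limma adjusted p = 0.132). Between sham groups the knockout was lower by a log2 difference of -0.98 ± 0.29 (limma adjusted p = 0.0918). Both of these passed the threshold without knockout 0 Gy replicate 1, at 1.23 (limma adjusted p = 0.0396) and -1.23 (0.0276). The sham groups share no scan day or slide. Txnrd1 was highest in its group on that array, on wild-type 0 Gy replicate 1, wild-type 6 Gy replicate 5 and knockout 6 Gy replicate 3. These arrays also had their groups' highest liver marker means (5.98, 6.39, 5.76 and 5.41). At 8.8 Gy replicate 4 was highest for Txnrd1 and replicate 3 for the liver markers. The part of liver RNA in the Txnrd1 differences was not tested.

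Txn1, thioredoxin itself, was called in no response, with log2 differences of 0.72 ± 0.30 (limma adjusted p = 0.0804), 0.32 ± 0.32 (0.524) and 0.49 ± 0.30 (0.252). Of its 14 irradiated arrays 7 lay above all 10 sham arrays, which ranged from 3.42 to 4.47. Hmox1, which breaks down heme, was called in none either, at 0.58 ± 0.22 (limma adjusted p = 0.0560), 0.31 ± 0.24 (0.400) and 0.51 ± 0.22 (0.102). On its brightest probe 8 of the 14 irradiated arrays exceeded all sham arrays (0.17 to 1.003). Its other probe gave 0.88 ± 0.34 in wild type at 6 Gy (limma adjusted p = 0.0545, in the fit of every probe) but -0.44 ± 0.34 in the knockout (0.353), so the probes disagree on the knockout's direction.

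Genotype and dose comparisons called none of the 10 genes. Between the sham groups 0.682% of all genes were called, between the genotypes at 6 Gy 0.850%, and in the difference of the responses at 6 Gy 6.08%. The sham groups share no scan day or slide, so genotype and scan day cannot be told apart between them. The difference of the responses contains that sham comparison. Knockout 6 Gy against wild-type 8.8 Gy, each genotype's LD50/30, had 0% called, with 269 genes at an unadjusted p under 0.05, and the wild-type step from 6 to 8.8 Gy had 0% with 2355. The difference of the responses at 6 Gy was -0.19 for Sod2 (95% interval -1.11 to 0.72), -0.05 for Gpx1 (-1.07 to 0.98) and -0.58 for Nqo1 (-1.74 to 0.58). Each of these intervals reaches below -1, so a knockout fall greater by 2-fold lies inside it. At the LD50/30 doses the knockout differed from wild type by -0.10 for Sod2 (-0.79 to 0.59), -0.02 for Gpx1 (-0.79 to 0.75) and -0.31 for Nqo1 (-1.18 to 0.56). Without both doubted arrays these were -0.08, -0.37 and -0.61, again not called (limma adjusted p = 0.999 for each). The 8.8 Gy level exceeded the 6 Gy level in wild type by 0.46 for Sod2, 0.53 for Gpx1 and 0.62 for Nqo1, none of which passed the test (limma adjusted p = 0.479, 0.460 and 0.447). Comparisons that share a control or an irradiated group are not independent of each other.

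Across the 24 arrays, the gene most like Sod2 among 7547 genes detected on every array was St3gal5 (r = 0.98), followed by Znhit6 and Arl4a (both 0.97). Gpx1 was closest to Hagh, Fam210b and Ubac1 (all r = 0.98), Prdx2 to Rsad2 (0.97), Eif5 (0.96) and Pigq (0.95), and Prdx1 to Glo1, Hadhb and Mtch2 (0.94, 0.94 and 0.93). Lower values were found for Txnrd1, whose nearest was Phb2 (0.91), for Hmox1 with Itpripl2 (0.92), for Txn1 with Cbr3 (0.87) and for Sod1 with Slc25a42 (0.78). The arrays share groups and scaling, and the values describe likeness over these arrays.

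Among 18 tested relatives of the 10 enzymes, 5 fell and 2 rose in wild type at 6 Gy, 1 fell and 1 rose at 8.8 Gy, and 4 fell and 3 rose in the knockout. Beside these counts and those of the lists below, 10.9%, 9.03% and 10.5% of all genes were called lower. The shares called higher were 15.5%, 7.03% and 12.3%. Glrx5, a mitochondrial glutaredoxin of iron and sulfur cluster assembly, fell in all 3, by log2 differences of -2.42 ± 0.36, -1.75 ± 0.38 and -2.36 ± 0.36 (limma adjusted p = 0.000135, 0.00400 and 9.96e-05). Txnrd2, the mitochondrial thioredoxin reductase, fell at 6 Gy in both genotypes (-1.28 ± 0.42 and -1.46 ± 0.42, limma adjusted p = 0.0288 and 0.0143). Prdx5 and Prdx6, both peroxiredoxins, moved the other way: Prdx5 rose by 0.88 ± 0.28 in wild type at 6 Gy and 1.04 ± 0.28 in the knockout, and Prdx6 by 0.92 ± 0.30 at 8.8 Gy and 1.16 ± 0.28 in the knockout. Txnrd3 fell in wild type at 6 Gy (-1.57 ± 0.47), and its response differed between genotypes by 2.24 ± 0.66 (limma adjusted p = 0.0461). The number of genes called in that genotype comparison varied widely with the processing, as given below.

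**Figure D5:**
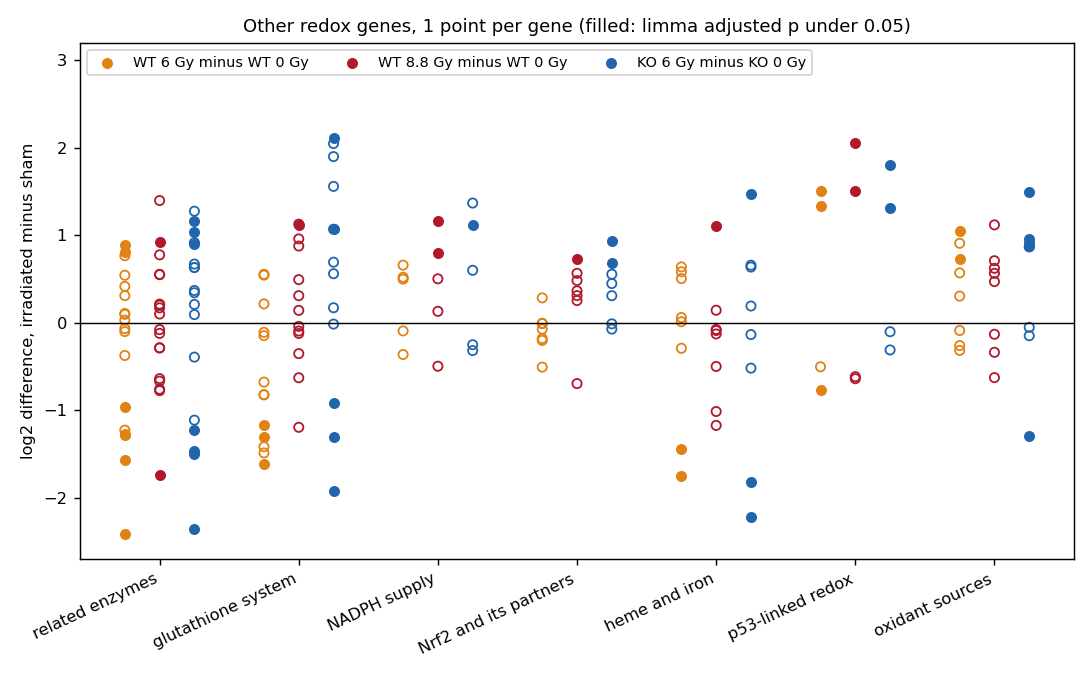
Log2 difference, irradiated minus sham, of the tested genes in 7 lists of related redox genes in the 3 radiation responses, 1 point per gene; filled points had a limma adjusted p under 0.05. Falls and rises occur side by side in the related enzymes, the glutathione system and heme and iron, while called NADPH supply genes lie above 0.

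Of 13 glutathione genes, 3 fell and 0 rose in wild type at 6 Gy, 1 rose at 8.8 Gy, and 3 fell and 2 rose in the knockout. Gclm, a subunit of the enzyme that starts glutathione synthesis, and Mgst3, a membrane glutathione transferase, fell at 6 Gy in both genotypes (Gclm -1.17 ± 0.39 and -1.31 ± 0.39, Mgst3 -1.62 ± 0.40 and -1.92 ± 0.40). Gsr, which regenerates glutathione, rose at 8.8 Gy (1.12 ± 0.28) and in the knockout (1.07 ± 0.26). Among 5 NADPH supply genes, Pgd of the pentose phosphate pathway rose in the same groups (1.16 ± 0.27 and 1.12 ± 0.25), and G6pdx, its first enzyme, rose at 8.8 Gy (0.80 ± 0.24). In wild type at 6 Gy neither list had a gene called higher, with Pgd at 0.66 ± 0.25 (limma adjusted p = 0.0575), and the response of Pgd did not pass the test of a difference between genotypes (0.46 ± 0.36, adjusted p = 0.435).

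Nfe2l2, which encodes Nrf2, rose at 8.8 Gy in wild type (0.73 ± 0.20, limma adjusted p = 0.0176) and in the knockout (0.93 ± 0.19, adjusted p = 0.00150). Its response differed between genotypes at 6 Gy by 0.94 ± 0.27 (limma adjusted p = 0.0448). Over all genes, the calls of that comparison (794) were 1 with scan day fixed and 0 with slide fixed. They were 7505 without the filter on dim probes. Bach1, a repressor at the same sites, rose in the knockout (0.68 ± 0.24, limma adjusted p = 0.0419), and of 7 tested genes of this list 0 fell. Among 8 heme and iron genes, Blvrb, which reduces biliverdin, fell at 6 Gy in wild type (-1.45 ± 0.35) and in the knockout (-2.23 ± 0.35), and the iron exporter Slc40a1 rose at 8.8 Gy (1.11 ± 0.31) and in the knockout (1.47 ± 0.29). Of 4 p53-linked redox genes, Sesn2, a stress-induced sestrin, rose in all 3 responses (1.51 ± 0.24, 1.501 ± 0.26 and 1.31 ± 0.24). Sesn1, a related sestrin, fell in wild type at 6 Gy (-0.78 ± 0.28). Trp53inp1, a p53 target, rose in all 3 (1.33 ± 0.32, 2.05 ± 0.34 and 1.80 ± 0.32). Of 8 oxidant-producing genes, Cyba and Ncf1, subunits of the phagocyte NADPH oxidase, rose at 6 Gy in wild type (1.04 ± 0.31 and 0.73 ± 0.25) and in the knockout (0.91 ± 0.31 and 0.96 ± 0.25), while Nos2, an inducible nitric oxide synthase, fell in the knockout (-1.30 ± 0.34). Neutrophil markers were higher too, with 7 of 18 called higher in each wild-type response and 5 higher and 2 lower in the knockout, and 4 of 18 at 8.8 Gy without both doubted arrays. Platelet markers were called higher for 0 of 14 in wild type at 6 Gy, 8 of 14 at 8.8 Gy and 6 of 14 in the knockout, with 0 called lower. Of 7 resident macrophage markers, 3, 0 and 4 were called higher in the 3 responses and 0 lower, with 1 higher in the knockout without both doubted arrays. Of 11 monocyte markers, 0, 1 and 3 were called higher and 1, 2 and 2 lower. The part of neutrophils, platelets, macrophages and monocytes in the rises of Gsr, Pgd, Nfe2l2, Slc40a1 and the oxidase genes was not tested. Among the named genes of these lists, the calls of Prdx6, G6pdx and Slc40a1 at 8.8 Gy (limma adjusted p = 0.0568, 0.0604 and 0.0606) and of Sesn1 in wild type at 6 Gy (0.0600) were lost without both doubted arrays.

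The lists' median log2 differences are set here beside those of all genes, which were 0.04 in wild type at 6 Gy, 0.03 at 8.8 Gy and -0.07 in the knockout. The relatives had medians of -0.02, 0.01 and 0.35 in that order, and the glutathione genes had -0.82, 0.14 and 0.69. The -0.82 is the value of Mgst1, whose SE was 1.25 and which was not called. Over wild-type 0 Gy replicates 1 to 5 the mean level of the glutathione list was 2.003, 0.18, 1.14, 0.23 and 1.72. The liver marker mean on these arrays was 6.39, -2.89, 4.10, -2.72 and 5.54. The part of liver RNA in the glutathione medians was not tested. NADPH supply genes stood at 0.50, 0.50 and 0.60, and Nrf2 and its partners at -0.07, 0.36 and 0.45. The heme and iron genes stayed near all genes, at 0.03, -0.11 and 0.03, with 2, 0 and 2 called lower and 0, 1 and 1 called higher. For the p53-linked genes the medians were 0.41, 0.44 and 0.60, and for the oxidant-producing genes they were 0.44, 0.52 and 0.87, with 2, 0 and 4 called higher and 0, 0 and 1 called lower.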

How the data were processed

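Each deposited array file gives linear intensities of its spots, written by Agilent Feature Extraction per the file headers, in version 11.5.1 per the submitters' processing notes. The authors' deposited series table holds log2 values that equalled log2 processed intensity plus 1 constant per array within 1.95e-06 over 10058 single-spot probes. The origin of those constants, and of 8376 empty cells, is unknown. Its column medians ranged from 7.63 to 8.09.

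Processed intensities were taken to log2, each array's 75th percentile over non-control spots was subtracted, outlier-marked and control spots were left out, and spots of a probe were averaged. A gene entered the test where the extraction program marked its brightest probe as well above background on 4 or more arrays of any group (13053 genes). limma 3.58.1 in R 4.3.3 fitted 5 group means over 24 arrays, two-sided, with Benjamini-Hochberg adjustment over all genes tested, called under 0.05, for 8 comparisons. The fit was tested on simulated data. Groups follow the labels' genotype and dose. Intervals are 95%. The number of arrays limits the precision. The genes and lists were chosen with earlier results of these data known. Named genes are the 10 enzymes, Parp1, up to 3 called genes with the largest rise and 3 with the largest fall per list and comparison, and the 3 genes most correlated with an enzyme. Probe coordinates are mm9, per the file headers; whether a probe lies in an exon or UTR was not analysed here. Replicate numbers did not pair samples: over 46 same-numbered pairs across groups the median correlation of deviations was -0.05. Alternatives were the background correction, normalization, centring, filters, probe choice, slide, scan day, replicate number, liver markers, the deposited log2 table, and leaving out arrays.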

Additional observations from a re-analysis of the deposited data

Results flagged for a closer look

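Within groups, 2 of 50 gene and group combinations had 1 array set apart from the rest by a gap too wide for its group's range, and chance alone gives about 1 in 20. Sod1 stood at 2.87 on knockout 6 Gy replicate 3, against 5.76 to 6.27 on the other 4 arrays of that group. Hmox1 stood at 1.84 on knockout 6 Gy replicate 4, against 0.89 to 1.13 on the others.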

How the results depend on the processing

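Numbers of the 10 genes called are given here for settings that moved them by more than 1.5 times. The planned normexp background correction called 6 genes in the knockout response, 6 between the LD50/30 doses and 2 for the dose step, and turned the LD50/30 difference of Sod2 to 1.004 (limma adjusted p = 0.0312) and of Gpx1 to 1.03 (0.0450). That fit failed on 7 arrays, all 4 wild-type 8.8 Gy arrays among them: 2 to 8 spots per array, whose local background exceeded their signal by more than 100, pulled the fitted background mean as low as -706 and raised corrected above raw signals. Refitted without those spots, an alternative added after seeing the data, normexp called 4 genes in the knockout response and 0 in both other comparisons, and reversed no call. It called 4 genes in wild type at 6 Gy and 2 at 8.8 Gy, where Nqo1 missed the threshold (-0.53, limma adjusted p = 0.107). Scan day and slide as fixed terms each left 0 of the 10 called in the 3 responses, on fewer residual degrees of freedom. At most 0.429% of all genes were called there. The liver marker covariate gave 7 in wild type at 6 Gy, 2 of them higher (Txn1 and Hmox1); the cause was not tested. Leaving out both arrays whose Parp1 level or label was in doubt left 1 called at 8.8 Gy. Leaving out each array in turn gave 3 to 5 in wild type at 6 Gy, 1 to 4 at 8.8 Gy, 3 to 4 in the knockout, and 0 to 1 between sham groups and for the difference of the responses. The replicate block called 4, 2 and 3 in the 3 responses, and the numbers share no pairing. Over all genes, the calls in wild type at 6 Gy (3446) ranged from 0 with slide fixed to 7058 without the filter on dim probes, those at 8.8 Gy (2097) from 0 with slide fixed to 4890 with the planned normexp, and those in the knockout (2978) fell to 53 with slide fixed. Those of the difference of the responses (794) were 157 with the repaired normexp, 165 with the replicate block, 1321 with median centring and from 0 (slide fixed) to 7505 (no filter on dim probes) over all settings, and those between genotypes at 6 Gy (111) ran from 1 with scan day fixed to 1438 with the liver marker covariate. Sham calls (89) ran from 0 to 193, and the 0 calls of the LD50/30 and dose step comparisons became 5766 and 2165 with the planned normexp alone, and at most 1 and 605 otherwise. Other settings kept member counts within 1.5 times. Signal over background limits Nqo1, which was well above background on 2 of 5 wild-type 6 Gy arrays, 4 of 5 knockout 6 Gy arrays and all 4 wild-type 8.8 Gy arrays.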
